A study of Mus musculus with 64 samples.

Results

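The 7 genes described here are Arntl (also called Bmal1), Clock and Npas2, which encode the transcriptional activators of the circadian clock, and Nr1d1, Nr1d2, Rora and Rorb, which encode the nuclear receptors REV-ERBα, REV-ERBβ, RORα and RORβ of its second feedback loop. They were chosen by name from the 49671 genes of the count table, and all 7 had more than 3 counts in each of the 64 libraries. The libraries were made from total RNA, depleted of ribosomal RNA, of CD11b-positive cells pulled down with magnetic beads from perfused adult male mice of strain C57BL/6 (C57BL6/N in the study's methods) kept under a reversed light cycle. The cells came from hippocampus or frontal cortex, were taken by day or by night, and belonged to 1 of 4 conditions labelled Ctr0, Ctr1, Soci and Cogn. Each of the 16 groups of region, phase and condition held 4 libraries, so each region and phase held 16. No genetic change or drug is named for any group, and all groups share the isolation at 4 °C. The labels do not explain the condition names. The study places the sampling at 1 time in the light and 1 in the dark phase, and the labels do not say which of these is day. In its reversed cycle the lights were off during clock daytime. Day and night are therefore used here as labels, and no direction between them can be read as one between light and dark. The labels also do not say which hippocampus and cortex libraries came from the same mouse, so the results in the regions may not be independent of each other. The p-values of differences set them against the spread between these samples.

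In the clock, the proteins of Arntl and Clock pair on E-box sequences and switch on their own repressors, the Per and Cry genes, as well as Nr1d1 and Nr1d2. NPAS2 is a close relative of CLOCK that can take its place in the pair. The REV-ERB proteins are repressors and the ROR proteins activators, and both bind the same short element, called a RORE, which the Arntl gene carries near its start. Arntl and the REV-ERB genes therefore peak at opposite times of the cycle in many tissues. REV-ERBs are also known in macrophages and microglia as repressors of inflammatory genes.

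Letters that match these elements were looked for around the start sites of the members, and the stretches of Arntl, Nr1d1 and Nr1d2 are shown because the loop is described as running through them. RefSeq promoter windows of build GRCm38.p6, each running from 250 bases before to 50 bases after a start, were searched on both strands. The RORE was searched as TAGGTCA and AGGTCA, which overlap, and E-boxes as CACGTG and CACGTT. Capitals mark the matched letters, and each stretch is written 5′ to 3′ on the strand of its gene.
Arntl, chr7:113207493-113207522 (+): ttggtcggaaAGTAGGTTAgtggtgcgaca
Arntl, chr7:113207529-113207558 (+): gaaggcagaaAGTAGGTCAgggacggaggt
Nr1d1, chr11:98775388-98775417 (-): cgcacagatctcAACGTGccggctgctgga
Nr1d2, chr14:18239166-18239195 (-): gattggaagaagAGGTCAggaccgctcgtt
The Arntl stretches hold copies of AGTAGGTNA, a string chosen after the sequence was seen, at 8 bases before and 28 bases after the second listed Arntl start, and 0.591% of all 32851 windows hold that string. The second copy contains TAGGTCA, held by 2.61% of windows. The Nr1d1 stretch holds CACGTT on the opposite strand, 28 bases before the start, and 4.68% of windows hold this motif. Nr1d2 carries AGGTCA 77 bases before its start, a motif held by 16.3% of windows. Members not shown also had matches on the opposite strand. Clock had AGGTCA 119 bases before a listed start, and Rorb had CACGTT 234 bases before a listed start. CACGTG, held by 7.15% of windows, and TTATGTAA, also searched and held by 0.938%, are in none of the members' windows. A match of letters is a description of the sequence and not a binding site.

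Total counts ran from 10.16 to 84.47 M (mega, as in megabase) per library, with a median of 15.93 M, and the deepest single libraries were in hippocampus, at 84.5 M in night Soci, 65.7 M in night Cogn and 62.2 M in day Cogn. Summed over 10 fixed microglia markers, levels were 10945 to 23613 CPM (counts per M of the library total, after trimmed-mean scaling), against 117 to 953 CPM for 10 neuron markers and 292 to 2508 CPM for 8 astrocyte markers. No gene of these lists was at 0 throughout. Marker levels moved with phase. Neuron markers had a median sum of 354 CPM by night and 238 CPM by day in hippocampus, and 428 and 209 CPM in frontal cortex. Astrocyte markers had medians of 598 and 412 CPM in hippocampus and 825 and 466 CPM in cortex, and microglia markers of 13295 and 15537 CPM in hippocampus and 13577 and 17062 CPM in cortex. Choroid plexus markers had medians of 1632 CPM by night and 266 CPM by day in hippocampus, where all 7 genes were lower by day, and 88.5 and 22.9 CPM in cortex. Border macrophage markers had medians of 163 and 328 CPM in hippocampus and 217 and 373 CPM in cortex, with 6 of 6 genes higher by day in both regions, and their part in the results was not tested. In these bulk samples, fewer cells of a type and less RNA per cell cannot be told apart.

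On the scale of CPM per kilobase of exon, which allows genes to be compared, Nr1d2 was the highest member in every region and phase, at 7.97 to 9.75. Nr1d1 changed its place in the order. By night in hippocampus it came after Nr1d2 at 5.18 CPM per kilobase, above Clock at 4.27 in 9 of 16 libraries, so these neighbours did not differ beyond their spread. By day it was at 1.38, below Clock at 4.58, Arntl at 1.66 and Rora at 1.61. Frontal cortex showed the same order of these genes by night, with Nr1d1 at 4.47 and Clock at 4.34, and Nr1d1 above Clock in 8 of 16 libraries. Rorb was the lowest member in all 4 combinations, at 0.190 to 0.692 CPM per kilobase, and Npas2 was at 1.10 to 1.78. In raw counts the lowest libraries held 20 counts of Rorb, 21 of Nr1d1, 24 of Npas2 and 94 of Arntl, against 594 of Clock, so the levels of Rorb, Nr1d1 and Npas2 are the least precise.

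**Figure D1:**
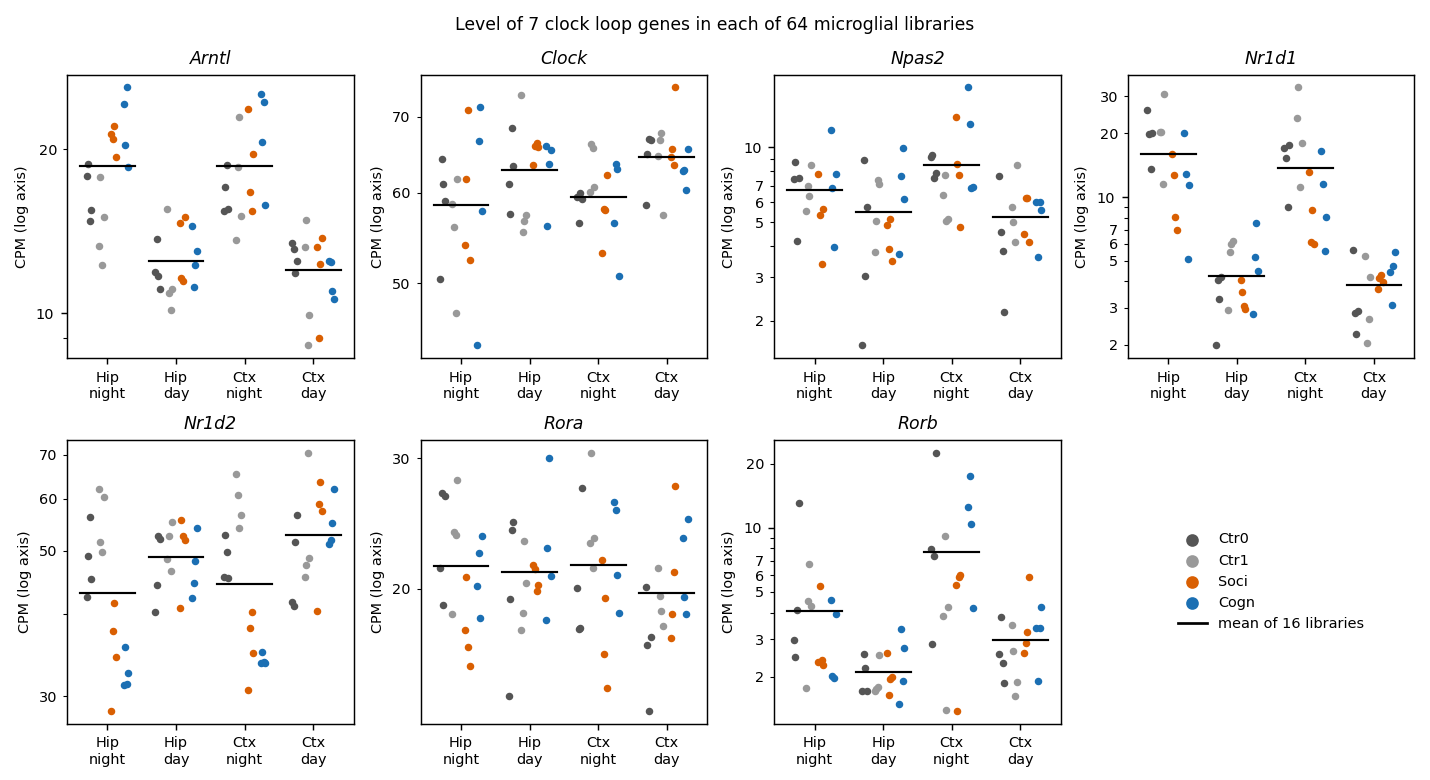
Level of each member in every library, in CPM on a log axis, by region and phase, with points coloured by condition and a bar at the mean of 16 libraries. Nr1d1 is near 4 CPM by day and 14 to 16 CPM by night, while Clock lies near 60 CPM throughout.

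The first comparison was between day and night within each region. Nr1d1, which cycles more strongly than Nr1d2 in many tissues, was lower by day in both regions. In hippocampus its 16 day libraries ran from 1.99 to 7.58 CPM with a median of 4.05, and its night libraries from 5.12 to 30.8 CPM with a median of 14.7. In frontal cortex day libraries ran from 2.05 to 5.61 CPM with a median of 4.05, and night libraries from 5.56 to 33.0 CPM with a median of 12.3. The phases overlapped slightly: a day library lay below a night library in 250 of 256 pairs in hippocampus and in 255 of 256 pairs in cortex. The ratio of the night to the day mean was 3.77 and 3.57. All 7 members overlapped between the phases, and 0.444% of genes in hippocampus and 0.361% in cortex did not, of which those with every day library below every night library made up 0.142% and 0.0467% of the genes tested. The log2 difference, day minus night, was -1.87 (SE 0.208, edgeR adjusted p = 2.22e-08) in hippocampus and -1.84 (SE 0.215, edgeR adjusted p = 9.34e-08) in cortex. Ordered by p, Nr1d1 was number 116 of 15527 genes tested in hippocampus and number 95 of 14975 in cortex.

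Arntl, the common partner of CLOCK and NPAS2, was also lower by day, by less. Its day libraries in hippocampus ran from 10.2 to 15.5 CPM with a median of 11.8, and its night libraries from 12.3 to 26.0 CPM with a median of 18.7. In frontal cortex the ranges were 8.74 to 14.9 CPM by day, median 12.4, and 13.6 to 25.2 CPM by night, median 17.8. A day library lay below a night library in 240 of 256 pairs in hippocampus and 254 of 256 in cortex. The log2 difference was -0.54 (SE 0.0863, edgeR adjusted p = 6.82e-06) and -0.64 (SE 0.0868, edgeR adjusted p = 1.15e-06). Arntl and Nr1d1 thus differed between the sampled phases in the same direction, and with 1 time of sampling per phase no phase of peak can be placed for either gene.

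Of the other activators, Clock was nearly level, at 62.9 CPM ± 5.08 by day and 58.6 ± 7.82 by night in hippocampus and at 64.6 ± 3.94 and 59.6 ± 4.19 in cortex (SD, n = 16). Its small log2 differences of 0.14 (edgeR adjusted p = 0.0486) and 0.11 (edgeR adjusted p = 0.0129) passed the threshold of 0.05, and the hippocampus call was kept in 1 of 17 alternative settings. Npas2 was at 5.47 CPM ± 2.27 by day and 6.74 ± 2.09 by night in hippocampus, a difference of -0.26 that did not pass (edgeR adjusted p = 0.26). In cortex it was lower by day, at 5.25 CPM ± 1.58 against 8.52 ± 3.34, which is -0.71 on the log2 scale (SE 0.169, edgeR adjusted p = 0.00119). With the mean log2 CPM of the neuron markers as a term in the fit, that cortex difference was 0.14 (edgeR adjusted p = 0.67).

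The remaining receptors split. Nr1d2, the partner of Nr1d1 in the REV-ERB family, was at 48.9 CPM ± 5.18 by day and 43.1 ± 10.8 by night in hippocampus. In cortex it ran from 40.4 to 70.5 CPM by day, median 51.7, and from 30.6 to 65.3 CPM by night, median 42.8. Its log2 differences of 0.22 (SE 0.0948, edgeR adjusted p = 0.0604) and 0.24 (SE 0.101, edgeR adjusted p = 0.0521) had the opposite sign to those of Nr1d1 and missed the threshold. With condition as a term they were 0.25 (edgeR adjusted p = 0.00858) and 0.27 (edgeR adjusted p = 0.0175). Of 17 alternative settings, Nr1d2 passed in 2 in hippocampus, from 0.08 to 0.32, and in 5 in cortex, from -0.03 to 0.39. Tested within conditions, as given below, its difference was called in Soci and Cogn and not in Ctr0 or Ctr1. These pooled values therefore do not describe all conditions. Rora, which encodes a broadly expressed ROR, was level over the pooled conditions at 21.0 CPM ± 3.54 and 21.4 ± 3.79 in hippocampus and at 19.7 ± 3.39 and 21.5 ± 4.31 in cortex. Within single conditions its log2 differences took both signs, from -0.19 to 0.28 in hippocampus and -0.34 to 0.23 in cortex, none called. Rorb, known mainly from neurons and retina, was lower by day at 2.10 CPM ± 0.511 against 4.06 ± 2.79 in hippocampus (log2 -0.91, SE 0.225, edgeR adjusted p = 0.00136). In cortex it was at 2.98 CPM ± 1.09 against 7.66 ± 5.78 (log2 -1.36, SE 0.295, edgeR adjusted p = 4.59e-04). With an astrocyte marker term these Rorb differences were 0.13 (edgeR adjusted p = 0.47) and 0.08 (edgeR adjusted p = 0.74). Nr1d1 stayed past the threshold with each marker term, at -1.41 to -1.86 in hippocampus and -1.25 to -1.70 in cortex.

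In all, 4 of the 7 members passed in hippocampus, beside 42.2% of all genes tested, and 5 of 7 in cortex, beside 41.8%, so the count itself is near the background. Arntl and Nr1d1 passed in 16 of 17 alternative settings in each region, the exception being the fit on replicate 4 of each group alone. Scaling by library totals alone, without trimmed means, shifted the median of all genes by -0.159 in hippocampus and -0.0696 in cortex. The share of higher genes among those called then went from 55.5% to 6.10% in hippocampus and from 49.2% to 16.1% in cortex. Nr1d1 overlaps the 3′ end of Thra, which encodes a thyroid hormone receptor on the opposite strand, over 263 exon bases. Thra had log2 differences of -0.67 (edgeR adjusted p = 1.37e-04) and -0.76 (edgeR adjusted p = 1.31e-04). Intronic genes on the opposite strand of their host held a median of 0.0449 counts per kilobase, against 12.8 on the same strand (means 16.3 and 26.2). How much the overlap with Thra adds to the Nr1d1 counts was not tested.

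**Figure D2:**
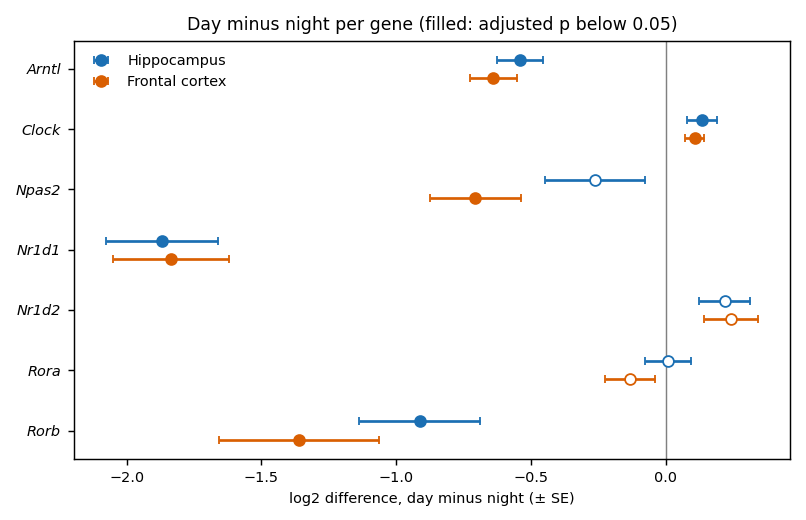
Difference between day and night of each member in hippocampus and frontal cortex, in log2 units with its standard error, 16 libraries per phase. Filled points have an adjusted p under 0.05, and Nr1d1 at -1.87 and -1.84 lies farthest from 0.

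Within a library, the ratio of an activator to a receptor does not depend on how libraries are scaled. The log2 ratio of Arntl to Nr1d1 counts, not corrected for length, was 1.62 ± 0.615 by day and 0.34 ± 0.875 by night in hippocampus (SD, n = 16), a difference of 1.28 (two-sided permutation test, adjusted p = 8.17e-05). In frontal cortex it was 1.68 ± 0.518 by day and 0.59 ± 0.857 by night, a difference of 1.09 (permutation test, adjusted p = 1.4e-04). Arntl thus lost less by day than Nr1d1 did. Against Nr1d2 the order turned: the ratio of Arntl to Nr1d2 was lower by day, with differences of -0.78 in hippocampus (permutation test, adjusted p = 1.9e-04) and -0.89 in cortex (permutation test, adjusted p = 1.4e-05). These values pool unlike conditions. In hippocampus this ratio was -2.03 by day and -1.73 by night in Ctr0 and Ctr1, and -1.91 and -0.66 in Soci and Cogn. In cortex it was -2.04 and -1.66 in Ctr0 and Ctr1, and -2.21 and -0.81 in Soci and Cogn. The ratio of Nr1d1 to Nr1d2, the REV-ERB pair, was lower by day, with differences of -2.06 and -1.98. All 14 ratio tests passed, and 10 of them gave 1e-05, the smallest p that 100000 resamples allow. Each of these ratios holds Nr1d1 or Arntl, which already differed by phase in the same libraries, so the 14 results add no independent support.

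**Figure D3:**
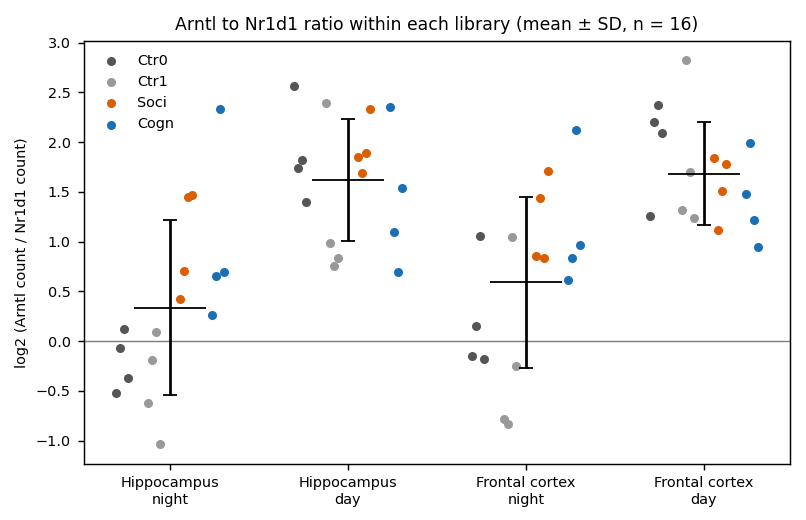
Log2 ratio of Arntl to Nr1d1 counts in every library, by region and phase, with the mean and SD of 16 libraries. The night libraries run from -1.04 to 2.34 in hippocampus and from -0.83 to 2.12 in cortex, a wider span than by day.

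The night values of that ratio differed between the conditions. Group means by night in hippocampus were -0.21 for Ctr0 and -0.44 for Ctr1, against 1.01 for Soci and 0.99 for Cogn. In frontal cortex they were 0.22 and -0.21 against 1.21 and 1.14. By day all 8 group means lay between 1.25 and 1.98. Tests across the 4 conditions with 3 degrees of freedom called none of the 7 members in either region by edgeR, beside 0% of all genes. Nr1d2 had the lowest unadjusted p of the members, 2.74e-05 in hippocampus (edgeR adjusted p = 0.115) and 0.00176 in cortex (edgeR adjusted p = 0.72), and DESeq2 called it in hippocampus (DESeq2 adjusted p = 0.0089). Because these values pointed to Soci and Cogn by night, those conditions were then set against Ctr0 and Ctr1 in each phase. That contrast was chosen after the values were seen, so its p-values are not independent of the choice.

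By night, Nr1d2 was lower in Soci and Cogn in every library of both regions. In hippocampus the 4 night libraries held 28.5, 37.7, 41.5 and 34.4 CPM in Soci and 31.2, 35.7, 31.3 and 32.5 CPM in Cogn. Those of Ctr0 held 42.5, 49.1, 56.2 and 45.2 CPM, and those of Ctr1 held 62.1, 51.5, 49.7 and 60.5 CPM. The highest Soci or Cogn library, at 41.5 CPM, was thus just under the lowest of the others, at 42.5 CPM. In frontal cortex Soci held 30.6, 38.0, 40.3 and 34.9 CPM and Cogn 33.6, 35.0, 33.8 and 33.7 CPM. Ctr0 there held 45.6, 52.8, 49.7 and 45.4 CPM and Ctr1 65.3, 60.7, 54.0 and 56.7 CPM. The groups did not overlap in either region, which held for 0.0416% of genes in hippocampus and 0.0554% in cortex. The log2 difference was -0.62 (SE 0.0822, edgeR adjusted p = 1.73e-04) in hippocampus and -0.61 (SE 0.0929, edgeR adjusted p = 0.00358) in cortex.

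Nr1d2 was number 3 of 16826 genes by p in hippocampus and number 2 of 16238 in cortex, where 6 genes were called in each region, 0.0357% and 0.037% of those tested. Of these, Dbp, Tef and Per3 were called in both regions and are clock genes driven through E-boxes. Their log2 differences were -1.03 and -1.09 for Dbp, -0.46 and -0.41 for Tef, and -0.59 and -0.62 for Per3, all lower in Soci and Cogn. Hlf, related to Dbp and Tef, was called in hippocampus at -0.69. By day, Nr1d2 differed by -0.03 (edgeR adjusted p = 0.99) and 0.14 (edgeR adjusted p = 0.69) between the same conditions, with levels of 40.3 to 55.7 CPM in hippocampus and 40.4 to 70.5 CPM in cortex. The difference between the night and the day contrast was itself 0.59 in hippocampus (SE 0.116, edgeR adjusted p = 0.0811) and 0.74 in cortex (SE 0.131, edgeR adjusted p = 0.0183), beside 0.00594% and 0.0246% of genes called. Within the pairs of conditions, Ctr1 minus Ctr0 by night was 0.22 and 0.29 and Cogn minus Soci was -0.11 and -0.07, and none of these was called, beside 0% of genes. In cortex the night libraries of Ctr1, at 54.0 to 65.3 CPM, still lay above those of Ctr0, at 45.4 to 52.8 CPM (edgeR unadjusted p = 0.0336). The share of all genes with such a gap between Ctr0 and Ctr1 was not counted.

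**Figure D4:**
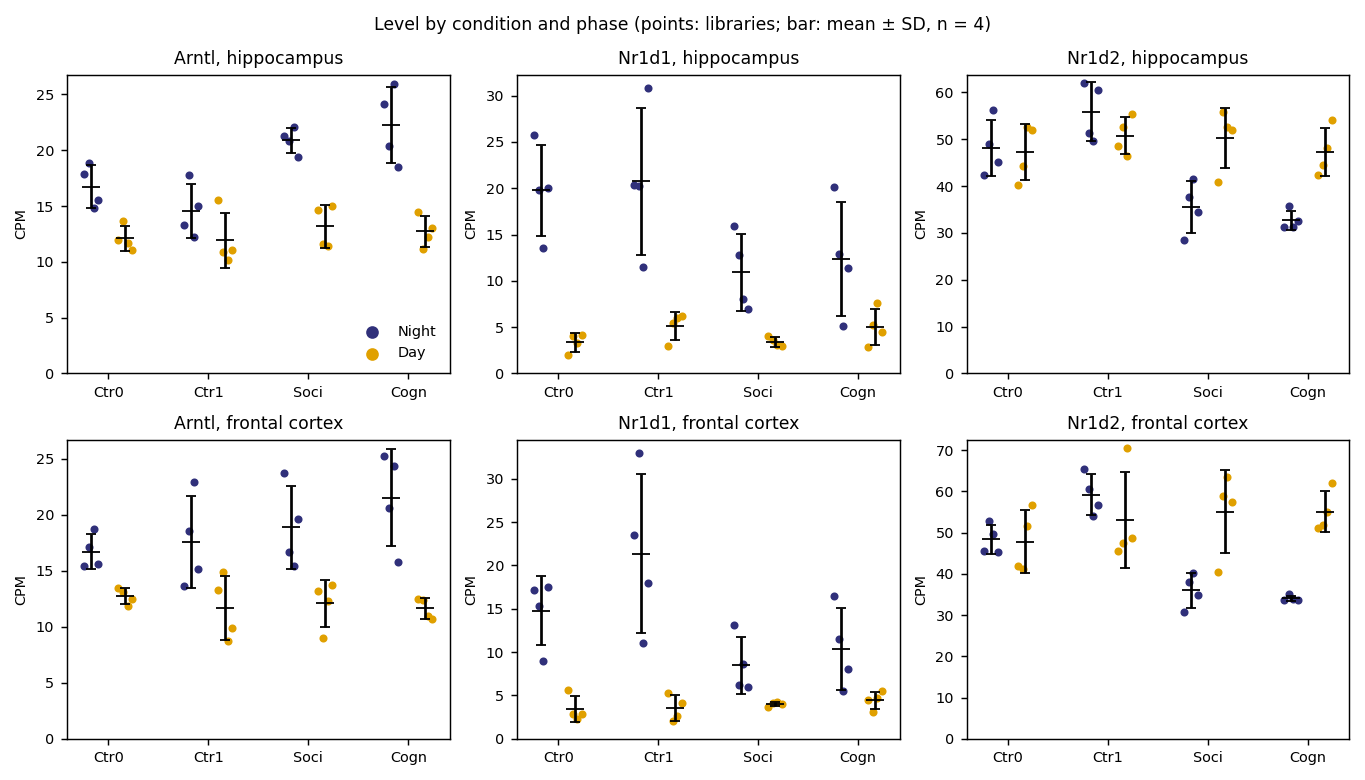
Levels of Arntl, Nr1d1 and Nr1d2 in CPM by condition and phase in each region, points for libraries with the mean and SD of 4. The night Nr1d2 libraries of Soci and Cogn reach 41.5 CPM at most, and those of Ctr0 and Ctr1 start at 42.5 CPM.

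Arntl and Nr1d1 had differences of opposite sign in the same night libraries, and neither passed the test across genes. Arntl in hippocampus was at 18.5 to 26.0 CPM in Soci and Cogn and 12.3 to 18.8 CPM in Ctr0 and Ctr1 (log2 0.45, SE 0.0952, edgeR adjusted p = 0.136), and in cortex the difference was 0.24 (edgeR adjusted p = 0.67). Nr1d1 was at 5.12 to 20.1 CPM against 11.5 to 30.8 CPM in hippocampus (log2 -0.82, edgeR adjusted p = 0.55) and at 5.56 to 16.4 CPM against 8.97 to 33.0 CPM in cortex (log2 -0.92, edgeR adjusted p = 0.31). Rora and Rorb differed by -0.30 and -0.70 in hippocampus and by -0.15 and 0.07 in cortex, none of these called. Set against each other within a library, the ratio of Arntl to Nr1d1 was higher by 1.32 log2 units in Soci and Cogn in hippocampus, in 64 of 64 pairs of libraries (exact permutation test, adjusted p = 9.32e-04, with 0.0001554 the smallest raw p that 12870 arrangements allow). In cortex it was higher by 1.17, in 54 of 64 pairs (exact permutation test, adjusted p = 0.0103), a call that was lost without replicate 1, 2 or 4 of each group (exact permutation test, adjusted p = 0.0649, 0.0974 and 0.104). The ratio of Arntl to Nr1d2 was higher by 1.08 in hippocampus and 0.84 in cortex, in 64 and 63 of 64 pairs (exact permutation test, adjusted p = 9.32e-04 and 0.00124). The ratio of Nr1d1 to Nr1d2 did not pass (-0.25 and -0.32, exact permutation test, adjusted p = 0.51 for both), and neither did any of these ratios by day, where the lowest adjusted p was 0.32. These 12 tests share the Arntl and Nr1d2 counts and were also chosen after the values were seen.

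**Figure D5:**
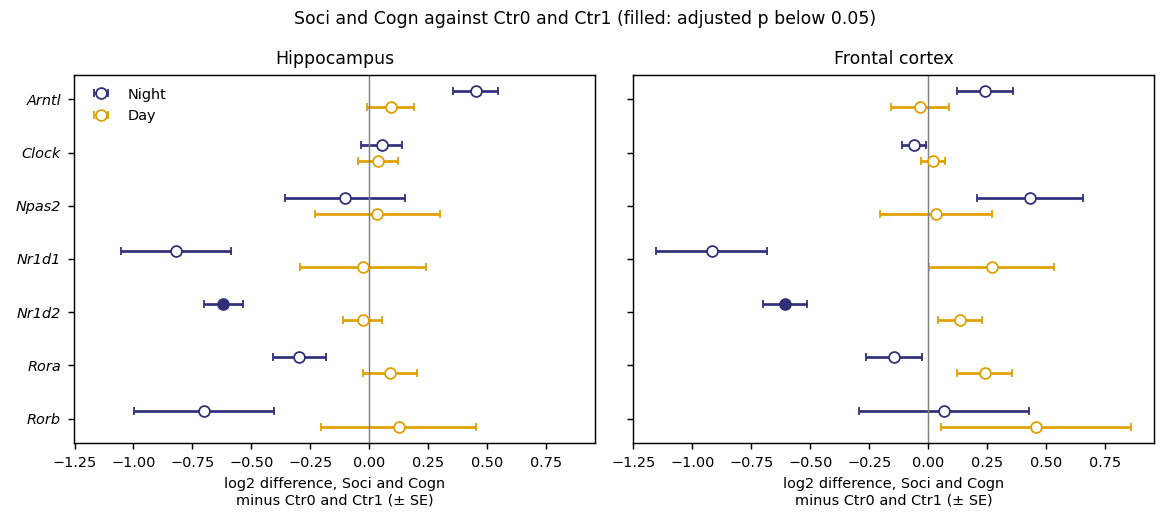
Difference of Soci and Cogn from Ctr0 and Ctr1 for each member, in log2 units with its standard error, by night and by day in each region. By night Nr1d2 lies at -0.62 and -0.61 with short error bars, and by day its differences are -0.03 and 0.14.

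Marker levels in the night libraries overlapped between these conditions. In hippocampus neuron markers summed to 167 to 702 CPM in Soci and Cogn and 227 to 907 CPM in Ctr0 and Ctr1, astrocyte markers to 352 to 796 against 368 to 1896 CPM, and microglia markers to 11869 to 15232 against 12149 to 16341 CPM. No gene of any marker list was called in this contrast, beside 0.0357% of all genes in hippocampus and 0.037% in cortex. The median log2 differences in hippocampus were -0.38 for neuron, -0.61 for astrocyte, -0.30 for endothelial and -0.02 for microglia markers (all genes 0.0041). In cortex they were 0.21, 0.0078, -0.50 and 0.17 (all genes 0.022). The part of endothelial cells was not tested. With a neuron, astrocyte, choroid plexus or microglia term the Nr1d2 difference was -0.62 to -0.65 in hippocampus and -0.58 to -0.65 in cortex, and with the log2 library total as a term -0.62 and -0.60, past the threshold each time. The Nr1d2 difference passed in 14 of 15 alternative settings in hippocampus, from -0.33 to -0.67, and in 12 of 15 in cortex, from -0.54 to -0.65. The call ended with library totals alone in both regions (edgeR adjusted p = 0.0723 and 0.48). In cortex it also ended without replicate 2 (edgeR adjusted p = 0.47) or replicate 4 (edgeR adjusted p = 0.19) of each group. The cortex difference between night and day ended without replicate 1, 2 or 4.

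Within each condition, in the same libraries, the day-night difference of Nr1d2 was called in Soci and Cogn. It was 0.54 and 0.58 in hippocampus (edgeR adjusted p = 0.0057 and 0.00563) and 0.62 and 0.69 in cortex (edgeR adjusted p = 0.00494 and 0.00388), against -0.09 to 0.02 for Ctr1 and Ctr0 in hippocampus and -0.15 to -0.02 in cortex, none of these called. Nr1d1 was lower by day in all 4 conditions of hippocampus, at -2.51 in Ctr0, -1.96 in Ctr1, -1.62 in Soci and -1.26 in Cogn. In cortex it was -2.09, -2.57 and -1.22 in Ctr0, Ctr1 and Cogn, and -1.07 in Soci, which missed the threshold (edgeR adjusted p = 0.0696). Arntl ranged from -0.24 in Ctr1 to -0.76 in Cogn in hippocampus, called in 3 conditions, and from -0.39 in Ctr0 to -0.89 in Cogn in cortex, called in 3. Differences among the 4 conditions in these changes did not pass for any member in either region, where 0% and 0.00616% of genes passed by edgeR, and DESeq2 called Nr1d2 in both (DESeq2 adjusted p = 0.038 and 0.0053). In these contrasts of 4 against 4 libraries, 13.2%, 12.5%, 8.08% and 5.32% of genes were called in Ctr0, Ctr1, Soci and Cogn of hippocampus and 5.47%, 4.35%, 6.51% and 5.86% in cortex.

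Over all 64 libraries, phase took a share of the variance of 68.7% for Nr1d1 and 59.1% for Arntl, against a median of 9.36% over 17140 genes. For Nr1d2 phase took 15.8%, condition 25.1%, and the terms that combine condition with phase or region 31.6%, against medians of 4.46% for condition and 10.2% for the combined terms. Clock had 73.9% and Rora 65.7% within groups, near the median of 64.2%. For Rora condition took 9.57% and the combined terms 21.1%, both above their medians. Over the 16 group means, Nr1d1 ran from 3.38 CPM in day Ctr0 of hippocampus to 21.4 CPM in night Ctr1 of cortex, 6.33-fold, and Arntl from 11.6 CPM in day Cogn of cortex to 22.3 CPM in night Cogn of hippocampus. For both genes the 8 day groups were the 8 lowest. Nr1d2 ran from 32.7 CPM in night Cogn of hippocampus to 59.2 CPM in night Ctr1 of cortex. Neighbours in these orders overlapped in their libraries, except for 1 of 15 steps of Nr1d2. The median coefficient of variation within groups was 7.28% for Clock, 11.4% for Nr1d2, 14.9% for Arntl, 16.4% for Rora, 30.9% for Npas2, 38.2% for Nr1d1 and 42.0% for Rorb.

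Whether activators and receptors moved together from library to library was examined within each region and phase, in 48 correlations of 16 libraries each. Arntl and Nr1d1 did not pass in any of them, with Pearson r between -0.46 and -0.11. Arntl and Nr1d2 were inversely related in night hippocampus (r = -0.80, Spearman rho = -0.84, permutation test, adjusted p = 0.00528 and 0.00288; r = -0.77 without the 2 extreme libraries). After centring on the conditions this r was -0.19 (permutation test, adjusted p = 0.65). Npas2 and Nr1d1 were positively related in day hippocampus (r = 0.86, rho = 0.83, permutation test, adjusted p = 0.00144 and 0.00408; r = 0.74 without the 2 extreme libraries). In the other strata r was 0.68, 0.20 and 0.61 (permutation test, adjusted p = 0.0558, 0.64 and 0.10). Centred on the conditions, it was 0.85 in day hippocampus, 0.78 in night hippocampus, 0.81 in night cortex and 0.65 in day cortex (permutation test, adjusted p = 0.00288, 0.00736, 0.00288 and 0.0547). These libraries also share their depth and marker levels, whose part in this relation was not tested.

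Between the regions, Rorb was the member that passed, lower in hippocampus (log2 -0.71, SE 0.189, edgeR adjusted p = 0.00547), 1 of 7 members beside 16.6% of genes (6.17% lower and 10.4% higher in hippocampus). With a neuron marker term this was -0.25 (edgeR adjusted p = 0.15), and with a choroid plexus term -0.31 (edgeR adjusted p = 0.53). The other 6 members differed between regions by -0.14 to 0.17. No member passed the test of its day-night difference between the regions, beside 1.19% of genes by edgeR, and the lowest unadjusted p was 0.118 for Npas2.

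The genes around the loop were read from lists. Of all genes tested, 23.4% were higher and 18.8% lower by day in hippocampus, and 20.6% and 21.3% in cortex. Of 14 other clock genes of the E-box arm, 9 were higher and 1 lower by day in hippocampus (median log2 0.40, all genes 0.02), and 8 were higher and 1 lower in cortex (median 0.31, all genes -0.02). Cry1, a repressor of the activator pair, was higher by 1.29 and 1.25, Per2 by 1.12 and 1.27, and Per3 by 0.92 and 0.76. Tef, a transcription factor with a basic leucine zipper, was higher by 0.51 and 0.45, and Usp2, a deubiquitinase, by 0.35 and 0.38. The co-regulators of CLOCK and BMAL1 had 8 of 9 genes higher and none lower in hippocampus (median 0.21) and 6 of 9 higher and none lower in cortex (median 0.15). Among them the acetyltransferases Ep300 (0.32 and 0.26) and Crebbp (0.26 and 0.20) changed by small amounts. Of genes described as targets of REV-ERB or ROR, 5 were higher and 2 lower of 10 in hippocampus (median 0.25) and 4 and 2 of 11 in cortex (median 0.15). Lpl, lipoprotein lipase, was lower by day at -0.97 and -0.71. Of 11 co-regulators of the receptors, 6 were higher and 1 lower in hippocampus (median 0.12) and 6 and 3 in cortex (median 0.09). Ncoa3, a coactivator of nuclear receptors, was higher by 0.33 and 0.29, and Ppargc1a, a coactivator that acts with ROR proteins, was lower at -1.14 and -0.87. Arntl2, the paralogue of Arntl, was lower at -0.57 and -0.66. In all, 27 list genes passed in both regions, 23 higher and 4 lower, where 42.2% of all genes passed in hippocampus and 41.8% in cortex. The share of all genes that passed in both regions was not counted, so this count has no background. Cry1 is on both the E-box list and the target list. In the night contrast of Soci and Cogn, 4 of the 14 E-box genes were lower in hippocampus (median log2 -0.32, all genes 0.0041) and 3 in cortex (median -0.12, all genes 0.022), none was higher, and no gene of the other lists was called.

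Over the 16 group means, the genes most like each member among 10940 expressed genes were as follows, with Pearson's r as a description. Nr1d2 was closest to Ifit3 (0.91), an interferon-induced gene, and then to the clock genes Dbp (0.87) and Tef (0.85). Nr1d1 was closest to Frmd5 (0.96), Dgke (0.95) and Lrig1 (0.95), and Arntl to Mrps5, Yeats2 and Pan2 (all 0.92). Npas2 was closest to Mir9-3hg and Cacnb3 (both 0.95) and to Nrxn2 (0.94), the last encoding a neurexin. Rorb was closest to Acsbg1 and Hpcal4 (both 0.98) and to Kcnj10 (0.97), a potassium channel of astrocytes. Clock was closest to Naa25 and Tmod3 (both 0.95) and to Dop1a (0.94), and Rora to Tmeff1, Usp46 and Nab1 (all 0.88).

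In the GRCm38 annotation, Arntl (ENSMUSG00000055116) lies on the plus strand of chromosome 7 from 113207465 to 113314126, and Clock (ENSMUSG00000029238) on the minus strand of chromosome 5 from 76209868 to 76304792. Npas2 (ENSMUSG00000026077) lies on the plus strand of chromosome 1 from 39193731 to 39363236. Nr1d1 (ENSMUSG00000020889) lies on the minus strand of chromosome 11 from 98767932 to 98775333, and Nr1d2 (ENSMUSG00000021775) on the minus strand of chromosome 14 from 18204054 to 18239127. Rora (ENSMUSG00000032238) spans 68653786 to 69388246 on the plus strand of chromosome 9 and Rorb (ENSMUSG00000036192) 18930605 to 19111196 on the minus strand of chromosome 19. Counts were taken over exons, of which Arntl has 7523 bases in union, Clock 13727, Npas2 4791, Nr1d1 3077, Nr1d2 5409, Rora 13071 and Rorb 11076.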

How the data were processed

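The authors deposited 1 table of whole-number read counts per gene for 64 libraries, not normalized. The submitters' processing notes name build GRCm38 p5, STAR 2.7.3a and featureCounts of Subread 2.0.0. Intronic genes on the opposite strand of their host held a median of 0.0449 counts per kilobase against 12.8 on the same strand. Of 49671 genes, 49412 matched GENCODE M21. No pair of 96 replicate pairs held identical counts. Gm26917 took 34.7% of counts and Gm42418 5.66%. A count of 3, the floor used for detection, equals 0.0355 to 0.295 CPM, and covers counting error only.

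Groups came from the labels. Counts were filtered (filterByExpr) and scaled by trimmed means, and edgeR 4.0.16 (R 4.3.3) quasi-likelihood tests were run across all genes with Benjamini-Hochberg adjustment at 0.05: day against night in each region, regions and their interaction in 1 fit, and conditions in fits of 8 group means per region. DESeq2 1.42.0 was an alternative. CPM used trimmed-mean scaling, log2 CPM a prior count of 2, and ratios 0.5 added to each count. Ratios and correlations used two-sided permutation tests (100000 resamples, scipy 1.17.1), or exact ones for 8 against 8 libraries. Scripts were tested on simulated counts.

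The members and lists were chosen with earlier results of these data known. Named genes were the 7 members, the 3 genes most like each, Thra, and at most 10 list genes past the threshold in both regions by lowest p in hippocampus. The contrasts of Soci and Cogn with Ctr0 and Ctr1, their ratio tests and the genes named from them, and the marker terms in those fits, were added after seeing the data. Alternatives changed the scaling, filter, tool, replicates, covariates, pseudocount and replicate block. No protein sequence was used here.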

Additional observations from a re-analysis of the deposited data

Results flagged for a closer look

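In groups of 4 libraries, 9 of 112 combinations of member and group held a library far from the other 3, where chance gives about 1 in 20, or 5.6. For Clock these were replicate 1 of day Ctr1 at 73.2 CPM and replicate 1 of day Soci at 63.5 CPM, the lowest of its group, both in hippocampus. Npas2 had replicate 2 of day Cogn in frontal cortex at 3.60 CPM, the lowest of its group. Nr1d1 had replicate 1 of day Ctr1 in hippocampus at 2.92 CPM, the lowest of its group. Nr1d2 had replicate 3 of day Ctr1 at 70.5 CPM and replicate 2 of night Cogn at 35.0 CPM, both in frontal cortex, the latter in a group that spanned only 33.6 to 35.0 CPM. Rorb had replicate 2 of night Soci at 1.39 CPM in frontal cortex, the lowest of its group, replicate 4 of day Ctr1 at 2.53 CPM in hippocampus, and replicate 2 of night Soci at 5.32 CPM in hippocampus, the highest of its group.

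The day-night change of Nr1d2 in frontal cortex differed between Soci and Cogn on one side and Ctr0 and Ctr1 on the other by 0.74 log2 units (edgeR adjusted p = 0.0183). This was a test of the difference itself, in a contrast chosen after the values were seen.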

How the results depend on the processing

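Values here are day minus night in log2 units unless another quantity is named, and the cause of each change was not tested. Of the members called by day and night, 0 were called in either region on replicate 4 alone, and in frontal cortex 2 with a neuron term and 3 with an astrocyte term. Rora in hippocampus, at 0.01, turned to -0.019 with median-of-ratios scaling, -0.020 without genes over 1% of counts and -0.018 without a filter, to -0.13 with library totals alone, to -0.015 with DESeq2 and to -0.12 on replicate 4 alone, and spanned -0.15 to 0.037 without single replicates. In cortex Rora turned to 0.25, 0.15 and 0.036 with neuron, astrocyte and microglia terms and 0.052 on replicate 4 alone. Clock in hippocampus turned to -0.019 with library totals alone. Npas2 turned to 0.10 with neuron or astrocyte terms in hippocampus and 0.14 with a neuron term in cortex, where Nr1d2 turned to -0.028 with the same term. Rorb turned to 0.13 with an astrocyte term in hippocampus, and to 0.67 and 0.079 with neuron and astrocyte terms in cortex. Between regions 3 members were called with a neuron term, 0 with a choroid plexus term and 0 on replicate 4 alone. The change between regions turned for Npas2 to -0.22 with a neuron term and -0.076 on replicate 4 alone, and for Rorb to -0.52 with a neuron term.

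Across conditions in hippocampus 1 member was called with library totals alone, with DESeq2 and with the replicate block, and 0 to 1 without single replicates. In the change among conditions DESeq2 called 1 member in each region. The night contrast of Soci and Cogn called 0 members with library totals alone in either region, 2 by DESeq2 in hippocampus and 2 with a neuron term in cortex, and 0 to 1 in cortex without single replicates. Its change between phases gave 1 in hippocampus by DESeq2 and with the block, and in cortex 0 with library totals alone and 0 to 1 without single replicates. By day Nr1d2 in hippocampus turned to 0.14 with library totals alone and spanned -0.039 to 0.0027 without single replicates. Cogn minus Soci by night in cortex turned to 0.035 and 0.0039 with neuron and microglia terms. Within conditions, the member contrasts called went from 10 to between 3 and 9 in hippocampus and 4 and 6 in cortex without single replicates, and in cortex to 2 with a neuron and 3 with an astrocyte term. On replicate 4 alone the ratio of Arntl to Nr1d1 differed by 1.33 (exact permutation test, p = 0.0857) and 0.95 (exact permutation test, p = 0.143).

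The correlations passing were 1 to 4 without single replicates. Arntl with Nr1d1 turned to 0.17 in night hippocampus after centring, and spanned -0.37 to 0.27 in day cortex without single replicates. Arntl with Nr1d2 turned to 0.68 in day hippocampus and 0.26 in day cortex with library totals alone. With the replicate block, Arntl with Nr1d2 in day hippocampus was 0.039 and Npas2 with Nr1d1 in night cortex -0.19. Same-numbered day and night libraries correlated above 0.1 in 4 of 16 pairs in hippocampus and 10 of 16 in cortex, and regions in 12 of 32. With other numbers this held for 19 of 48 pairs in hippocampus, 14 of 48 in cortex and 37 of 96 between regions. Libraries of different conditions with the same phase and number correlated above 0.1 in 26 of 48 pairs in hippocampus and 23 of 48 in cortex. Those below -0.1 were 11 and 13. Whether the numbers pair the samples or mark shared handling cannot be told from these values. The block moved the day-night counts of 4 and 5 members in no case. Of single-gene and single-pair values, 929 kept direction and side of the threshold, 48 fell below it, 23 rose past it, 33 reversed, and 45 counts of contrasts per member moved by over 1.5 times. At depths of 10.16 to 84.47 M (mega) counts, Rorb, Nr1d1 and Npas2 had as few as 20, 21 and 24 counts, which limits their precision.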

Other observations

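Genes outside the clock were also lower by night in Soci and Cogn. Spp1, which encodes osteopontin, was called in hippocampus (log2 -1.68, SE 0.325, edgeR adjusted p = 0.0472). The interferon-induced GTPases Iigp1 (log2 -1.15, SE 0.203, edgeR adjusted p = 0.0142) and Ifi47 (log2 -0.88, SE 0.166, edgeR adjusted p = 0.0333) were called in frontal cortex. The change of Iigp1 between night and day also differed, by 1.73 (edgeR adjusted p = 0.0154), as did that of Gvin1, by 1.05 (edgeR adjusted p = 0.0183). By day Notch4 was the gene called in hippocampus, higher in Soci and Cogn by 0.72 (edgeR adjusted p = 0.00681), and none was called in cortex. At an unadjusted p under 0.05, 1457 genes of 16826 in hippocampus and 1201 of 16238 in cortex differed by night. These genes were named after their values were seen.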
